A study of Mus musculus with 2 samples.

Results

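The cells described here are fibroblasts of the proximal and periurethral mouse prostate, taken from a single-cell RNA-sequencing library of that region. They were chosen by their own collagen RNA: a cell had to hold at least 2 UMIs (unique molecular identifiers, the tags by which captured RNA molecules are counted) in each of at least 2 of the genes Col1a1, Col1a2 and Col3a1. It also had to have fewer than 0.05% of its UMIs from the basal keratins Krt5, Krt14 and Krt15, at least 500 detected genes and at most 10% mitochondrial UMIs. Of 3709 cells of the library that passed the limits on genes and mitochondrial UMIs, 411 met the rule, a share of 11.1% (10.1% to 12.1%). The series as a whole held 5704 such cells, and in its other library, from the ventral lobes, 2 of 1995 cells met the rule, 0.1003% (0.0121% to 0.362%).

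Both libraries came from male wild-type mice of strain C57BL6, whose number and age the labels do not give, and no treatment or transgene is recorded for either. The tissue was dissociated with papain and then TrypLE, passed through fine strainers and loaded with a target of 5000 cells onto a 10x Genomics Chromium instrument. The proximal and periurethral library was made with version 3 of the 3' reagent kit and the ventral library with version 2, so region and kit cannot be told apart between them. With 1 library per region there is no replicate, and no test was made: values are levels in 1 library, and their intervals are exact 95% intervals that cover counting error only.

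Fibroblasts build and remodel the connective tissue around epithelial ducts. They secrete fibrillar collagens, proteoglycans and elastic fibres, and they send growth factors, Wnt proteins and chemokines to neighbouring cells. In the prostate the stroma responds to androgen and to Hedgehog ligands made by the epithelium, and signals of the stroma in turn shape the growth of the ducts.

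The 411 fibroblasts held 4913158 UMIs, with a median of 11210 UMIs and 3222 genes per cell and ranges of 1025 to 116308 UMIs and 568 to 8244 genes. The median mitochondrial share was 3.80%. No barcode occurred in both libraries. Levels are given as summed UMIs scaled to 1000000 UMIs of the cells concerned (CPM). Because capture differs from gene to gene, levels are compared between cells for the same gene and not between genes.

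The rule used the values of the 3 collagens, so their levels are a description: Col1a1 stood at 703 CPM (679 to 726), Col1a2 at 799 CPM (774 to 824) and Col3a1 at 1125 CPM (1096 to 1155) in fibroblasts, against 3.48, 3.42 and 3.77 CPM in the 3298 other cells. The label was checked on 2 markers outside the rule. Dcn, which encodes the proteoglycan decorin, stood at 6248 CPM (6178 to 6318) in fibroblasts and 256 CPM (253 to 259) in other cells. Pdgfra, the receptor for platelet-derived growth factor that marks many fibroblasts, stood at 162 CPM (151 to 173) and 1.85 CPM (1.58 to 2.16). A Pdgfra UMI was found in 75.9% (71.5% to 79.97%) of fibroblasts, and in 28.7% (24.3% to 33.4%) after each cell had been thinned to 2000 UMIs, which left out 14 shallower fibroblasts.

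To compare with cells that should lack these genes, other cells of the library were gated by 2 UMIs in each of 2 genes: C1qa, C1qb and C1qc for 50 macrophages, Pecam1, Cdh5 and Flt1 for 47 endothelial cells, and Epcam, Krt8 and Krt18 for 2863 epithelial cells. Median depths were 11171 UMIs in macrophages, 10699 in endothelial cells and 18056 in epithelial cells. Pdgfra was found in 0 of 50 macrophages and 0 of 47 endothelial cells, which by a floor of 3 cells allows shares of cells with a UMI of up to 6% and 6.38%. This does not show that the gene was unexpressed in them. In epithelial cells the share was 1.22% (0.853% to 1.696%) before and 0.211% (0.0775% to 0.459%) after thinning. Dcn was less selective: it was found in 402 of 411 fibroblasts and in 8 macrophages and 3 endothelial cells, but also in 1266 of 2863 epithelial cells, at 244 CPM. Both markers were highest in the cells the rule chose.

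Cells on either side of the collagen limit both held Dcn and Pdgfra. In the 52 members whose second collagen had exactly 2 UMIs, Dcn stood at 3646 and Pdgfra at 177 CPM. In the 63 cells outside the rule whose second collagen had 1 UMI, they stood at 1781 and 140.04 CPM, and 61.9% of these cells had a Pdgfra UMI. The keratin limit left out 13 cells that met the collagen rule, in which the epithelial keratin Krt8 stood at 1756 CPM. In these 13 cells Dcn stood at 3023 and Pdgfra at 103 CPM, and 76.9% had a Pdgfra UMI. No barcode under 500 genes met the collagen rule.

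Markers of other cell types differed in level. The 9 macrophage markers summed to 19.1 CPM in fibroblasts and 13861 CPM in gated macrophages, with C1qa and Tyrobp at 0 UMIs. The 8 endothelial markers summed to 273 against 5726 CPM in gated endothelial cells, with Emcn at 0, and Pecam1 alone gave 246 CPM of the sum. Pecam1 stood at a like level of 237 CPM over the other cells. Over the 4 large sub-clusters introduced below the endothelial list summed to 284, 398, 139 and 254 CPM. Of its 2 genes with at least 50 UMIs, 1 was at least 2-fold higher in sub-cluster 2, beside 2.08% of all genes. In each of sub-clusters 3 and 4, 1 was at least 2-fold lower, beside 7.28% and 3.54% of all genes. The part of this list in the differences between sub-clusters was not tested. The pericyte list summed to 101 against 22.6 CPM in the other cells. Of its 6 genes compared 1, Vtn, was at least 4-fold higher, beside 2.78% of all genes compared. The defining marker Rgs5 had 14 UMIs in all, 13 of them in 19 cells that held at least 10 UMIs of smooth muscle genes. Its level was 58.8 CPM in those 19 against 0.213 CPM in the other 392, and the part of such cells in the pericyte sum was not tested. In the largest sub-cluster described below the list summed to 142 CPM, and 2 of its 4 genes with at least 50 UMIs were at least 2-fold higher than in the other fibroblasts, beside 3.43% of all genes. The Schwann cell markers summed to 3.87 CPM. The 8 smooth muscle markers summed to 430.5 against 37.3 CPM in the other cells. Of the 8, 3 (Acta2, Des and Tagln) were at least 4-fold higher in fibroblasts, beside 2.78% of all genes compared. They are taken up with the contractile genes. Epithelial markers were lower than in the other cells but not at 0: the general epithelial list summed to 783 against 9029 CPM, the basal list to 160.4 against 1747 CPM, the distal luminal list to 16316 against 90864 CPM and the proximal luminal list to 371 against 4367 CPM. Over the 4 large sub-clusters introduced below, the general epithelial list summed to 207, 238, 264 and 261 CPM, and to 192 and 224 CPM in gated macrophages and endothelial cells. The distal luminal list summed to 2096, 2133, 2558 and 2231 CPM in the 4 sub-clusters and to 150070 CPM in 12 further cells, and the proximal luminal list to 119.9, 106, 106 and 187 and 2697 CPM. The adipocyte list summed to 72.7, 6.52, 14.3 and 113 CPM in the 4 and the chondrocyte and tendon list to 20.8, 17.7, 14.3 and 86.01 CPM, both highest in sub-cluster 4. Of their genes with at least 50 UMIs, 1 of 2 and 1 of 1 were at least 2-fold higher there, beside 2.32% of all genes, and their part in the differences of sub-cluster 4 was not tested. Over all fibroblasts these lists summed to 51.3 and 35.8 CPM, against 32.8 and 238 CPM in the other cells. The mesothelial list summed to 193 against 1584 CPM in the other cells, and 4 of its 6 genes had 0 UMIs in fibroblasts. Of its 4 genes compared, 1 was at least 4-fold higher and 1 at least 4-fold lower, beside 2.78% and 1.33% of all genes. Sbp, the secretory gene of luminal cells, stood at 1066, 1041, 1207 and 1125 CPM in these sub-clusters, against 1144 CPM in gated macrophages and 1086 CPM in gated endothelial cells. Another, small sub-cluster carried epithelial RNA and is described at the end.

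**Figure D1:**
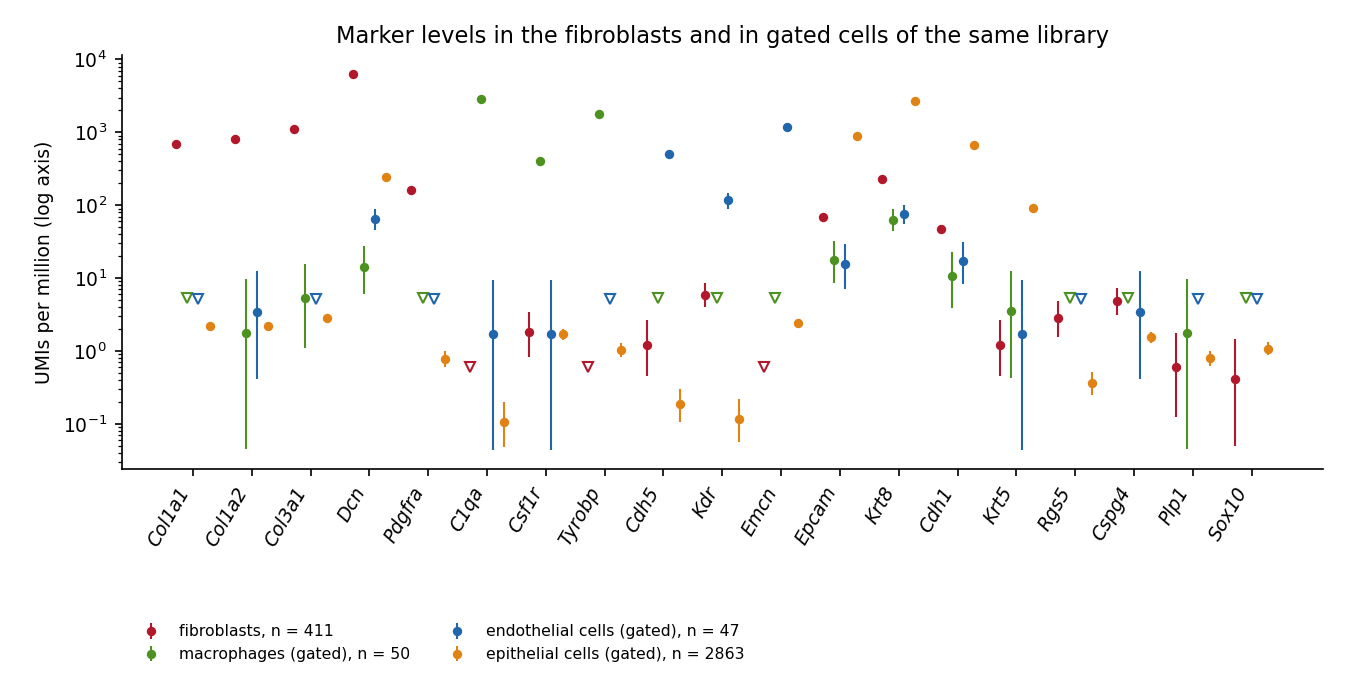
CPM (log axis) of fibroblast markers and of markers of other cell types in the 411 fibroblasts and in gated macrophages, endothelial cells and epithelial cells of the same library; bars are exact 95% Poisson intervals, and open triangles mark genes with 0 UMIs, drawn at the level that 3 UMIs would give. Dcn and Pdgfra are highest in fibroblasts, C1qa, Tyrobp and Emcn are at 0 in them, and Epcam and Krt8 are present at a low level.

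Genes of the matrix and ligand lists were often higher in fibroblasts than in the other cells of the library. Of these 3298 other cells 2863 were gated epithelial cells, so the comparison is mainly with epithelium. The glycoprotein and elastic fibre list summed to 15478 CPM in fibroblasts and 7386 CPM in gated endothelial cells. For matrix enzymes and inhibitors the sums were 5065 and 2876 CPM, and the other matrix lists were further apart. Of 16440 genes with at least 50 UMIs in the library, 457 were at least 4-fold higher in fibroblasts (2.78%) and 218 at least 4-fold lower (1.33%), on the ratio of CPM plus 10. These cells were chosen by collagen, so the counts describe them and test nothing. Among the 107 matrix genes compared, 69 were at least 4-fold higher and 2 lower, with a median log2 ratio of 2.71 against 0.02 over all genes. These include the 3 collagens of the rule, and of the 3 other fibrillar collagens 2 were higher. Among 116 ligands, binding proteins and guidance molecules, 39 were higher and 3 lower, with a median of 1.35. Of 18 contractile genes 6 were higher, of 61 receptors and pathway targets 13 were higher and 2 lower, and of 82 genes of the transcription factor, Hox, adventitial, stress and cell cycle lists 18 were higher and 5 lower.

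The 25 genes with the largest ratios were led by Col3a1 and included much of what a fibroblast secretes. Col3a1 was 299-fold (267 to 334) higher than in other cells. It is a gene of the rule, as are Col1a1 and Col1a2 among the 25. Their ratios were set in part by the choice of cells. Mgp, the matrix Gla protein that limits calcification, stood at 4879 CPM (4818 to 4941) against 76.5 CPM in other cells, but also at 3130.2 CPM in gated endothelial cells. Igfbp6, which binds insulin-like growth factor 2, was 176-fold (162 to 191) higher than in other cells. Wif1, a secreted Wnt inhibitor, was 109.7-fold (102 to 118) higher. Serping1, the inhibitor of complement C1, was 129.7-fold (118 to 143) higher, and the chemokine Cxcl12 89.8-fold (82.97 to 97.4). Elastin (Eln) and dermatopontin (Dpt) were 210.2-fold (181 to 246) and 220.001-fold (189 to 257) higher. Tcf21, a transcription factor of mesenchymal progenitors, was the one regulator of transcription besides the noncoding RNA Meg3 among the 25, at 681 CPM (658 to 704) against 6.11 CPM. The actin-severing protein gene Gsn was found in every member, at 13455 CPM. The proteoglycan Bgn, the galectin Lgals1, the glycoproteins Sparc, Matn2, Mfap4, Fbln1 and Abi3bp, the Wnt modulator Sfrp2, the potassium channel subunit Kcnd2, Ctla2a, Rarres2 and Serpinf1 made up the rest with Col1a1 and Col1a2.

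**Figure D2:**
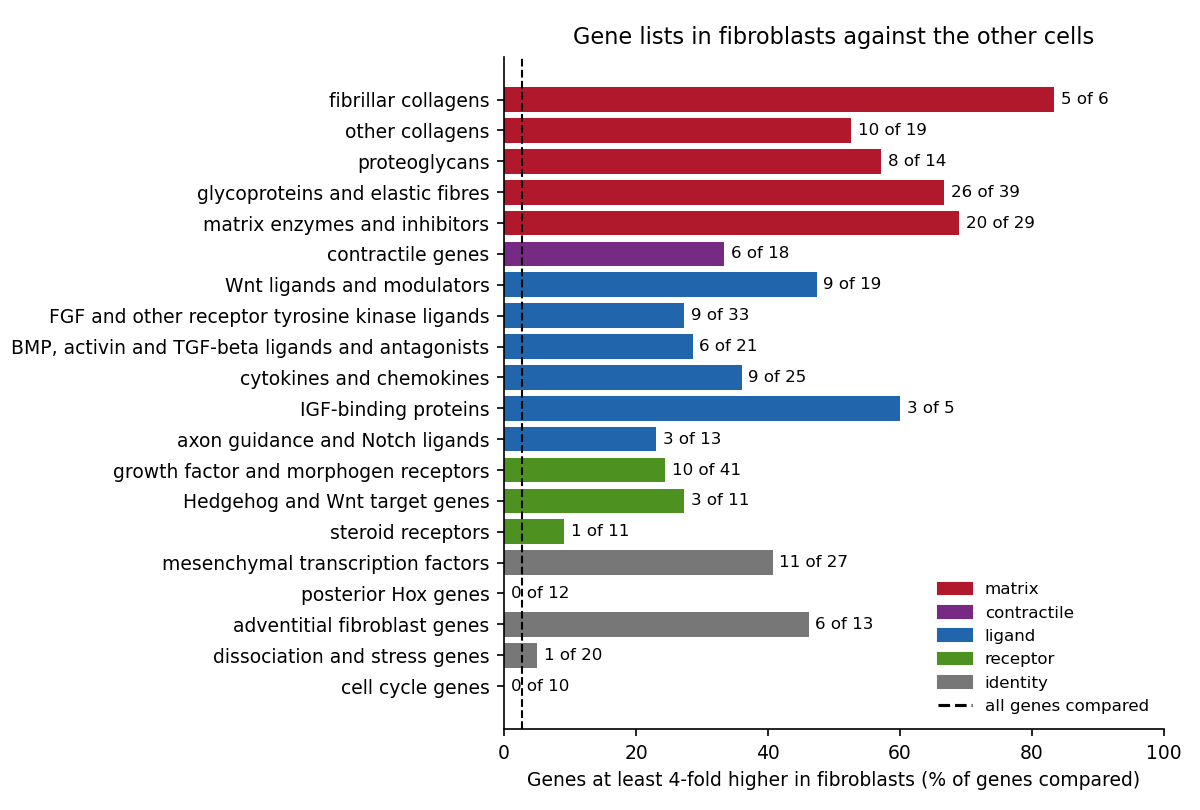
Percentage of the genes in each list that were at least 4-fold higher in fibroblasts than in the other cells of the library, with counts beside the bars, coloured by role; the dashed line marks the 2.78% of all genes compared. Among matrix enzymes and inhibitors 20 of 29 pass and among fibrillar collagens 5 of 6, of which 3 are the rule's own genes, and 0 of 12 posterior Hox genes pass.

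The ligand lists show which signals the fibroblasts made RNA for, though not for which they were the main source. The cytokine, chemokine and complement list summed to 3719 CPM in fibroblasts and 5478 CPM in gated macrophages. Ligands of receptor tyrosine kinases summed to 2443 CPM in fibroblasts and 2374 CPM in gated endothelial cells. The remaining ligand lists summed highest in fibroblasts, by a wider margin. Of 19 Wnt ligands and modulators, 9 were at least 4-fold higher than in other cells, namely Wnt2, Wnt5a, Wnt6, Wnt10a, Rspo3, Sfrp2, Dkk2, Wif1 and Notum. Of 33 ligands of receptor tyrosine kinases, 9 were higher, namely Fgf2, Fgf7, Fgf10, Igf1, Angpt1, Angptl4, Pros1, Ptn and Mdk, and the epithelial EGF-family ligand Areg was lower. Of 21 BMP, activin and TGF-beta ligands and antagonists, 6 were higher: Bmp4, Gdf10, Tgfb2, Fst, Fstl1 and Nbl1. Of 25 cytokines, chemokines and complement genes, 9 were higher, among them Cxcl12, Cxcl13, Cxcl14, Ccl2, Rarres2, C3 and Serping1, and the neutrophil chemokine Cxcl2 was lower. The Cxcl13 call rested on 1 cell: without it the level went from 69.4 to 10.6 CPM and the log2 ratio to 1.04. The 6 contractile genes past the limit were Acta2, Tagln, Des, Synpo2, Myl9 and Tpm2. Without 19 cells that held at least 10 UMIs of smooth muscle genes, 2 of the 6 stayed past it, Des and Synpo2. The log2 ratios of Acta2, Tagln, Myl9 and Tpm2 were then 0.43, 0.56, 1.30 and 1.79. Of 27 mesenchymal transcription factors, 11 were higher, among them Twist1, Twist2, Prrx1 and Osr1, and Gata3 and Sox9, which are also epithelial genes, were among the lower. The shares of these lists stand beside the 2.78% of all genes given above.

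The fibroblasts were not uniform. When they were clustered on variable genes with all matrix, contractile and ligand genes left out, 5 sub-clusters appeared, with 144, 102, 77, 76 and 12 cells. They are numbered by size and described by their leading genes, which come from the same clustered cells and are no test. The other fibroblasts to which a sub-cluster is compared include the 12 cells of sub-cluster 5. A gene lower in these 12 cells than in the other large sub-clusters thus has a larger ratio than against those alone. Sub-cluster 1 was led by Kcnc2, Pi15, Cd109, Rbm24, Olfml2b and Glis1. Sub-cluster 2 was led by Igfbp3, Igfbp2, Nptx2, Cxcl14, Tfap2c and Rgs16, and sub-cluster 3 had Map2, Apela, Smim41, Wnt2 and Ccnb1ip1 among its leading genes. Those of sub-cluster 4 included Sult1e1, Gpx3, Myoc, Lpl and Col6a3. With listed genes kept in the clustering, the log2 ratio of Igfbp2 in the best match of sub-cluster 2 was -0.0716. Median depths were 13267, 10735, 8931 and 9364 UMIs per cell in the first 4, and median mitochondrial shares 3.62%, 3.501%, 5.54% and 3.79%. Dissociation and stress genes took 2.09%, 3.33%, 1.47% and 2.18% of their UMIs. Sub-cluster 2 thus held the most stress RNA, with Junb at 6048 and Nfkbia at 1415 CPM against 2334 CPM and 608 CPM in the other fibroblasts, and sub-cluster 3 the least. Their part in the differences below was not tested.

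The 208 matrix, ligand and contractile genes with at least 50 UMIs in fibroblasts were not used to form the sub-clusters, though they come from the same cells. Genes that stand only in other lists, label markers apart, could be among the variable genes that formed the sub-clusters. Their differences between sub-clusters are a description only. Of the 208 genes, 22, 29, 22 and 42 were at least 2-fold higher in sub-clusters 1 to 4 than in the other fibroblasts. Of all 8696 genes 3.43%, 2.08%, 2.59% and 2.32% were. The 42 of sub-cluster 4 comprised 25 of 96 matrix genes and 17 of 96 ligands. Sub-cluster 2 had 20 ligands and 7 matrix genes, sub-cluster 1 had 14 and 8, and sub-cluster 3 had 13 and 2. At least 2-fold lower were 12, 13, 22 and 4 matrix genes and 26, 17, 18 and 15 ligands, beside 3.53%, 4.6%, 7.28% and 3.54% of all genes. The median log2 ratio of matrix genes was -0.02, 0.02, -0.23 and 0.34 in sub-clusters 1 to 4 and that of ligands -0.34, 0.09, -0.20 and -0.05, against 0.02, -0.11, 0.01 and 0.00 over all genes. Among sub-clusters 1 to 4, matrix genes were thus most often high in sub-cluster 4 and most often low in sub-cluster 3. In sub-cluster 5, 77 matrix genes and 59 ligands were at least 2-fold lower, beside 16.8% of all genes. There 1 matrix gene and 3 ligands were at least 2-fold higher, beside 4.39% of all genes.

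**Figure D3:**
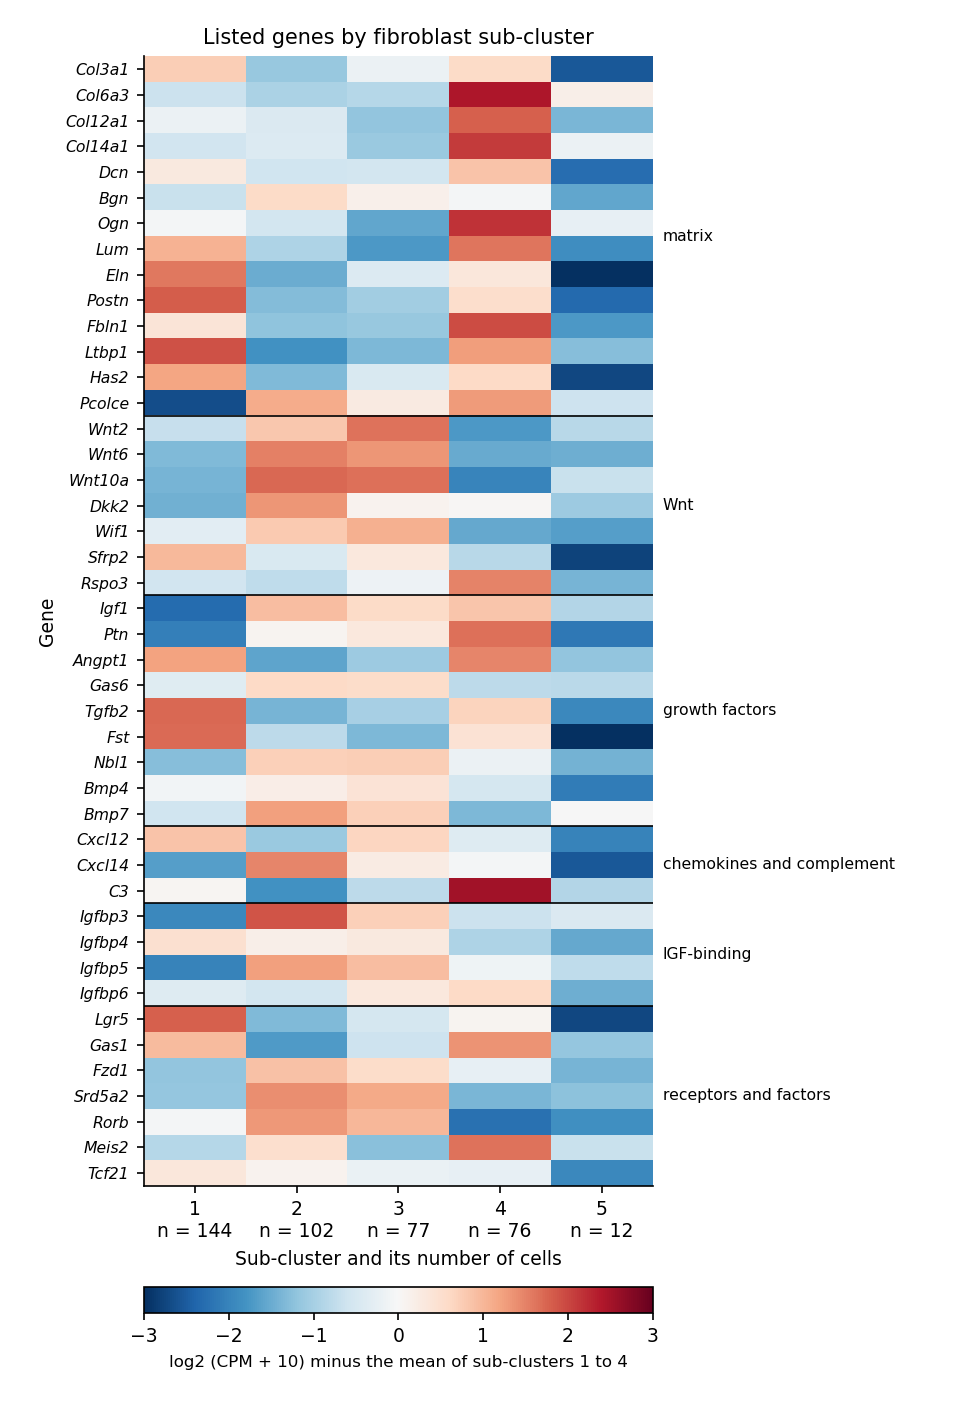
Level of listed genes in the 5 fibroblast sub-clusters, as log2 of CPM plus 10 minus the mean of sub-clusters 1 to 4; rows are genes grouped by role, columns are sub-clusters with their number of cells. Red blocks mark Eln, Postn, Fst and Lgr5 in sub-cluster 1, Wnt6, Wnt10a and Igfbp3 in sub-cluster 2, Wnt2 and Wif1 in sub-cluster 3, and Col6a3, Ogn and C3 in sub-cluster 4; most rows are blue in the 12 cells of sub-cluster 5.

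Several collagens were highest in sub-cluster 4, while the rule gene Col3a1 was high in both sub-clusters 1 and 4. Col3a1, a rule gene, stood at 1673, 455, 886 and 1505 CPM in sub-clusters 1 to 4, lowest in sub-cluster 2. Col1a1, also a rule gene, was more even, at 698, 715, 667 and 1036 CPM. Col6a3, a chain of the beaded-filament collagen VI, stood at 419 CPM (374 to 469) in sub-cluster 4 and 42.2 CPM in the other fibroblasts, a ratio of 9.93-fold (8.23 to 12.02). The fibril-associated collagens Col12a1 and Col14a1 were 5.53-fold (4.59 to 6.67) and 12.1-fold (8.13 to 18.3) higher there. Col6a5 had 69.9 CPM in sub-cluster 4, but 27.4 CPM without 1 member. Among collagens with little spread, Col15a1, a basement membrane-zone collagen, stood at 384, 422, 396 and 345 CPM. Col23a1, a transmembrane collagen, stood at 412, 298, 624 and 163 CPM and was highest in sub-cluster 3.

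Of 11 proteoglycan genes with at least 50 UMIs, 1, 1, 0 and 6 were at least 2-fold higher in sub-clusters 1 to 4. Of all genes 3.43%, 2.08%, 2.59% and 2.32% were. At least 2-fold lower were 2, 3, 3 and 0, beside 3.53%, 4.6%, 7.28% and 3.54% of all genes. Ogn (osteoglycin) stood at 67.5, 44.7, 17.1 and 348 CPM and Lum (lumican), which spaces collagen fibrils, at 144, 29.8, 12.9 and 220.4 CPM. Both were lowest in sub-cluster 3 and highest in sub-cluster 4. Dcn was found nearly everywhere, at 7523, 4038, 4204 and 11202 CPM. Bgn (biglycan) instead was highest in sub-cluster 2, at 2214 CPM (2126 to 2305), which was 2.02-fold (1.92 to 2.13) higher than in the other fibroblasts. Aspn (asporin) was found in 34 of 411 members, 24 of them in sub-cluster 4, where it stood at 73.9 CPM (55.7 to 96.2). It had 0 UMIs in sub-cluster 3, which allows up to 4.29 CPM.

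Elastic fibre genes peaked in different sub-clusters. Eln stood at 842, 92.2, 206 and 351 CPM, which made sub-cluster 1 4.93-fold (4.46 to 5.46) higher than the other fibroblasts. In sub-cluster 4 its level was 218 CPM without 1 member. Ltbp1, which tethers latent TGF-beta to microfibrils, stood at 293, 13.04, 21.4 and 181 CPM, and Ltbp4 at 1005, 966, 972 and 926 CPM. Ltbp1 therefore varied over sub-clusters where Ltbp4 was even. Postn (periostin) stood at 167, 10.2, 14.3 and 61.8 CPM and was found in 56 of 411 cells, with 3.77, 8.71 and 41.02 CPM left in sub-clusters 2, 3 and 4 without the member with most of its UMIs in each. Its log2 ratio in the best match of sub-cluster 1 was -0.0539 with 3000 variable genes. Fbln1 (fibulin 1) and Mfap4, a microfibril protein, were instead highest in sub-cluster 4, at 374, 115, 123 and 1119 CPM and 458, 179.7, 143 and 716 CPM. Among enzymes, the hyaluronan synthase Has2 stood at 174, 22.3, 48.6 and 112 CPM (in sub-cluster 3, 28.9 CPM without 1 member), and Pcolce, which enhances procollagen cleavage, at 10.4, 269, 147 and 306 CPM. Pcolce was thus lowest where Eln was highest. The collagen cross-linking enzyme Lox stood at 83.1, 40.04, 27.1 and 176 CPM, while the inhibitors Timp2 and Timp3 varied less, at 930.3, 604, 773 and 1097 CPM and 557, 504, 539 and 496 CPM. The ratios of Ltbp1 and Has2 in sub-cluster 1 turned direction at the finer clustering resolution of 0.8, where the best match of that sub-cluster held 54.2% of its cells, with log2 ratios of -0.13 and -0.0404.

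Wnt ligands and their modulators were more often high in sub-clusters 2 and 3 than in 1 and 4. Of 17 genes of this list with at least 50 UMIs, 2, 5, 7 and 2 were at least 2-fold higher in sub-clusters 1 to 4, beside 3.43%, 2.08%, 2.59% and 2.32% of all genes. In each of sub-clusters 1 and 4, 6 of the 17 were at least 2-fold lower, beside 3.53% and 3.54% of all genes. Wnt2 (gene ENSMUSG00000010797, chr6:17988940-18030585, minus strand, GRCm38) stood at 112, 334, 597 and 49.7 CPM and was 3.82-fold (3.37 to 4.32) higher in sub-cluster 3 than in the other fibroblasts. Wnt6 (ENSMUSG00000033227, chr1:74771892-74785322, plus strand) stood at 10.4, 135, 119 and 8.06 CPM. Wnt10a (ENSMUSG00000026167, chr1:74791516-74804179, plus strand) stood at 5.19, 122 and 114 CPM in sub-clusters 1 to 3 and had 0 UMIs in sub-cluster 4, which allows up to 4.03 CPM. Wnt6 and Wnt10a are neighbours on chromosome 1, transcribed in the same direction with 6193 bases between them. At 2 UMIs or more, 63 fibroblasts held Wnt6, 60 held Wnt10a and 36 held both, which is 57.1% of the first and 60% of the second. Multiplying the shares of fibroblasts that held each gene gives 9.2 cells. Deeper cells show more genes, so such an overlap is a description only.

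The promoters of Wnt2 and Wnt6 are shown because these ligands shared their high sub-clusters, and that of Sult1e1, the leading gene of sub-cluster 4, for contrast. Each runs from 250 bases before to 50 after the start of the gene, 5' to 3' on the gene's strand, as given by RefSeq for GRCm38.p6: chr6:18030396-18030695 (minus strand), chr1:74771642-74771941 (plus strand) and chr5:87591562-87591861 (minus strand). Capitals mark the GC box GGGCGG, the TATA motif TATAAA and the CCAAT motif on either strand.
Wnt2: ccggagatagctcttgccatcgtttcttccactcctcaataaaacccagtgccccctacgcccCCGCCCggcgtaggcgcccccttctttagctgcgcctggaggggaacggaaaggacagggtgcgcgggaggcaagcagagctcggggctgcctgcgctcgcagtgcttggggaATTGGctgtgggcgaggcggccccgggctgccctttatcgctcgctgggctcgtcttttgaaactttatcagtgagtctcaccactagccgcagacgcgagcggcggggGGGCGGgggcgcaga
Wnt6: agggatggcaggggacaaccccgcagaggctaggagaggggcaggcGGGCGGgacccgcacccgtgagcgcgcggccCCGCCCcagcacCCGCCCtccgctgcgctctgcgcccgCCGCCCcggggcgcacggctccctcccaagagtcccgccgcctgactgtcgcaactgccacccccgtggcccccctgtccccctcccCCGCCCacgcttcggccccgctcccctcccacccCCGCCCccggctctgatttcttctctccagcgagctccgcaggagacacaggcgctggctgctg
Sult1e1: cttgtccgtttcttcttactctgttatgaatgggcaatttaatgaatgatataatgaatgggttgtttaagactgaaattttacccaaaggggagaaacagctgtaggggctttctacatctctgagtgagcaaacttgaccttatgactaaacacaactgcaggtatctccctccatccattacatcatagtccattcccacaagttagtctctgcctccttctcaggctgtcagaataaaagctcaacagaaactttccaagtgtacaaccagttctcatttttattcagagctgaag
The Wnt6 promoter held 6 GC boxes, the Wnt2 promoter 2 GC boxes and 1 CCAAT motif, and the Sult1e1 promoter none of the 3 motifs. Of 32851 promoters in the table, 35.7% held GGGCGG, 37.4% CCAAT and 13.6% TATAAA. The GC content was 65.7% for Wnt2, 76.7% for Wnt6 and 40% for Sult1e1, against a median of 52.7%. A match is a run of letters and not a measured site. Wnt10a and Lgr5 have no entry.

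Secreted Wnt inhibitors were divided as well. Wif1 stood at 804, 1741, 2123 and 339 CPM, highest in sub-cluster 3 like Wnt2. Dkk2, which binds the Wnt coreceptors, was highest in sub-cluster 2, at 258 CPM (228 to 290.2) against 57.8 CPM in the other fibroblasts. When the matrix, contractile and ligand genes were kept in the clustering, the best-matching cluster had a Dkk2 log2 ratio of -1.13. Sfrp2, a secreted Frizzled-related protein, was highest in sub-cluster 1, at 729, 264, 456 and 200.2 CPM. Rspo3, an R-spondin that strengthens Wnt signals through Lgr receptors, was highest in sub-cluster 4, at 45.2, 39.1, 64.3 and 222 CPM. Sostdc1 stood at 91.4 CPM in sub-cluster 3, of which 41.97 CPM remained without 1 member. Of 9 Hedgehog and Wnt target genes with at least 50 UMIs, 1, 2, 2 and 0 were at least 2-fold higher in sub-clusters 1 to 4. Of all genes 3.43%, 2.08%, 2.59% and 2.32% were. At least 2-fold lower were 1, 1, 1 and 2, beside 3.53%, 4.6%, 7.28% and 3.54% of all genes. These target genes were not kept out of the clustering. The 2 higher in each of sub-clusters 2 and 3 were Nkd1 and Lef1, at 39.98, 116, 127 and 29.6 CPM and 11.9, 55.9, 75.7 and 12.1 CPM.

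Lgr5, the R-spondin receptor known as a stem cell marker of epithelia, was highest in sub-cluster 1. Lgr5 (ENSMUSG00000020140, chr10:115450311-115587780, minus strand) stood at 807 CPM (767 to 848) there and at 83.8, 154 and 239 CPM in sub-clusters 2 to 4, a ratio to the other fibroblasts of 6.21-fold (5.55 to 6.96). It was found in 136 of 144 cells of sub-cluster 1, and over all fibroblasts in 54.01% (49.1% to 58.9%), or 35.01% (30.3% to 39.9%) after thinning. In gated macrophages the share was 2% (0.0506% to 10.6%) and in epithelial cells 10.5% (9.41% to 11.7%), or 2.14% (1.64% to 2.75%) after thinning. Wnt2 was found in 51.8% (46.9% to 56.7%) of fibroblasts, 28.2% (23.8% to 32.9%) after thinning, against 2% (0.0506% to 10.6%) of macrophages and 1.12% (0.766% to 1.57%) of epithelial cells. Lgr5 and Wnt2 did not divide the cells cleanly: of 191 fibroblasts with 2 UMIs of Lgr5 and 169 with 2 of Wnt2, 74 had both. Multiplying the 2 shares gives 78.5 cells, close to that count.

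**Figure D4:**
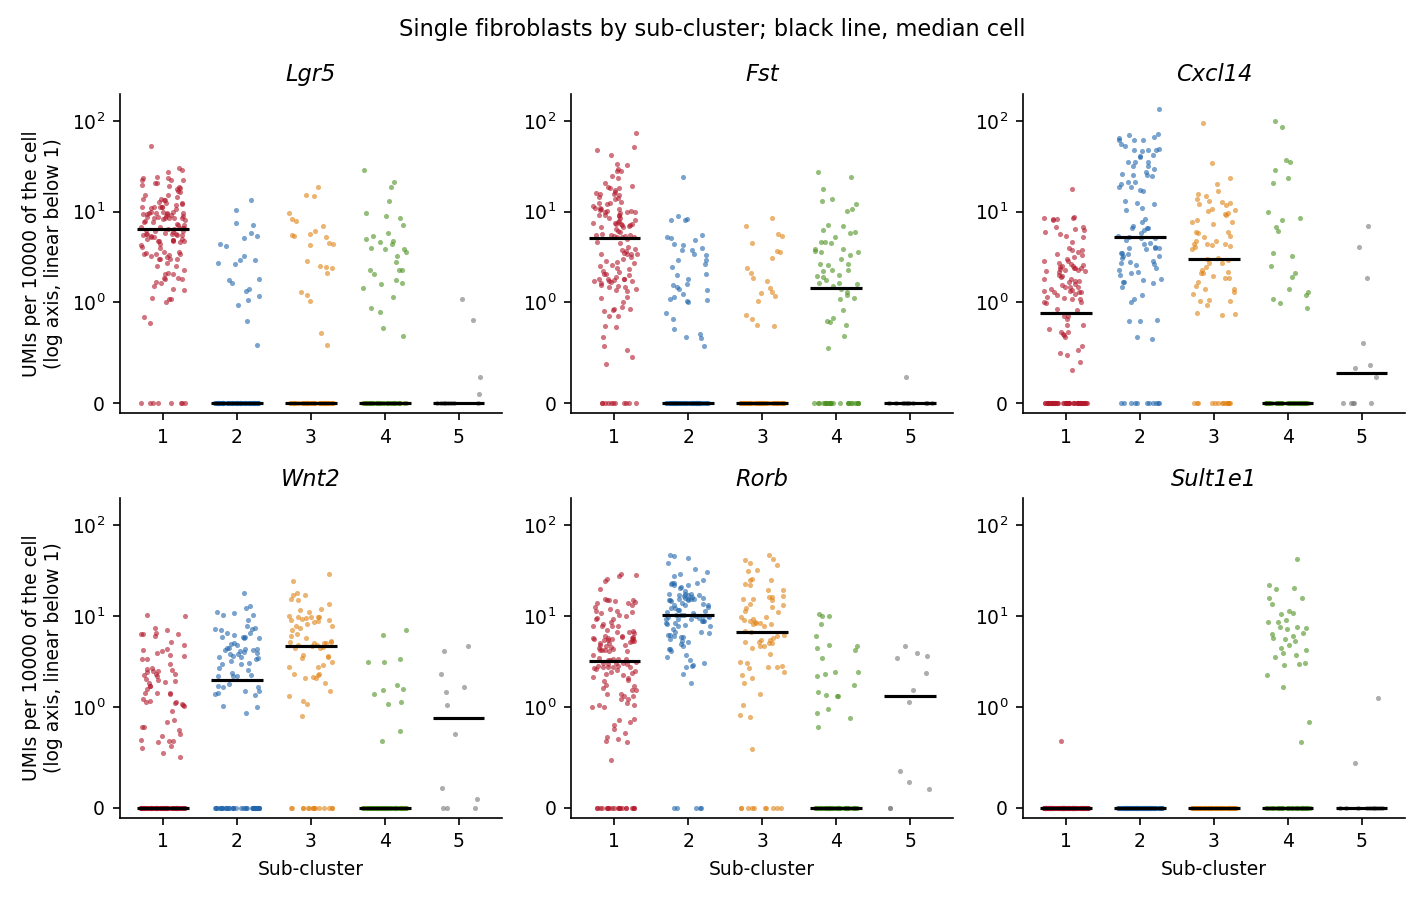
UMIs per 10000 UMIs of the cell (log axis, linear below 1) of 6 genes in each fibroblast, by sub-cluster; each point is a cell, placed with random sideways spread, and black lines are the medians of cells. Lgr5 and Fst points are densest in sub-cluster 1 with some in every other, while Sult1e1 points lie almost entirely in sub-cluster 4, where 36 of 76 cells hold it.

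The activin antagonist Fst and the ligand Tgfb2 were highest in sub-cluster 1, like Lgr5. Fst (follistatin), which binds activin, stood at 798, 134, 88.6 and 325 CPM, 5.31-fold (4.78 to 5.91) higher in sub-cluster 1 than in the other fibroblasts. Tgfb2 stood at 357, 32.6, 45.7 and 167 CPM. Within sub-cluster 1, 106 of 144 cells had 2 UMIs of both Lgr5 and Fst, where 128 had Lgr5 and 115 had Fst. Multiplying the 2 shares gives 102 cells, close to that count. Nbl1, a BMP antagonist of the DAN family, had the opposite pattern, at 362, 1482, 1495 and 789 CPM. Bmp4 varied less, at 204, 251, 289 and 148 CPM, while Bmp7 stood at 13.5, 74.5, 48.6 and 4.03 CPM. Bmp5 was a gene of few cells, with 17 of its 23 positive members in sub-cluster 4, where it stood at 57.8 CPM. With stress genes left out of the clustering, sub-cluster 4 matched a cluster in which the log2 ratio of Bmp5 was -0.0409.

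Growth factors for receptor tyrosine kinases were arranged differently again. Igf1, insulin-like growth factor 1, stood at 34.8, 412, 320.1 and 388 CPM, so that sub-cluster 1 was the one low group. Ptn (pleiotrophin) was 5.33-fold (4.84 to 5.87) higher in sub-cluster 4, at 75.3, 363, 433 and 1114 CPM. Angpt1, the ligand of the endothelial receptor Tie2, stood at 111, 7.45, 14.3 and 133 CPM and was high in sub-clusters 1 and 4 alike. Its log2 ratio in the best match of sub-cluster 4 was -0.91 at resolution 0.8. Fgf7 and Fgf10, which act on epithelial FGF receptors, stood at 161, 69.8, 52.9 and 122 CPM and 28.6, 17.7, 50.01 and 87.4 CPM. Without 1 member each, Fgf7 stood at 43.4 CPM in sub-cluster 2 and Fgf10 at 27.7 CPM in sub-cluster 3. Gas6 was highest in sub-clusters 2 and 3, at 315, 629, 602 and 234 CPM. Some IGF-binding proteins were lower in sub-cluster 1 than in 2 and 3: Igfbp5 stood at 264, 2562, 2093 and 992 CPM and Igfbp3 at 11.4, 293, 124 and 43.01 CPM. Igfbp4 and Igfbp6 varied less, at 519, 422, 454 and 189 CPM and 1118, 989.8, 1827 and 2207 CPM.

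Chemokine and complement genes peaked in different sub-clusters. Cxcl12, which attracts cells bearing Cxcr4, stood at 1142, 285, 986 and 482 CPM, and Cxcl14 at 159, 1464, 620.1 and 496 CPM. Cxcl12 was thus lowest in sub-cluster 2, where Cxcl14 was highest, 4.899-fold (4.54 to 5.29) higher than in the other fibroblasts. With ligand genes kept in the clustering, the log2 ratios of Cxcl14 and Penk in the best match of sub-cluster 2 were -0.62 and -0.38. Complement C3 stood at 53.99, 7.45, 25.7 and 341 CPM, which made sub-cluster 4 10.1-fold (8.18 to 12.5) higher than the other fibroblasts. C3 was found in 16.1% (12.6% to 19.97%) of fibroblasts, 7.305% (4.95% to 10.3%) after thinning, and in 2% (0.0506% to 10.6%) of macrophages and 1.89% (1.42% to 2.45%) of epithelial cells. Cxcl13, which attracts B cells, stood at 449 CPM (402 to 499.7) in sub-cluster 4, but 5 cells held all of its UMIs there and the level was 61.7 CPM without 1 of them. Adm (adrenomedullin) and Penk (proenkephalin) were highest in sub-cluster 2, at 104, 398, 143 and 86.01 CPM and 191, 535, 284 and 263 CPM. The guidance ligands Slit2 and Slit3 were lowest in sub-clusters 3 and 2, at 208, 121, 28.6 and 296 CPM and 310.5, 107, 141 and 415 CPM. Without members that held 2 UMIs of another cell type's gene, the log2 ratio of Slit3 in sub-cluster 4 was -0.35.

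Most UMIs of the 5 smooth muscle genes Acta2, Actg2, Cnn1, Myh11 and Tagln lay in few cells. Of their 1075 UMIs in fibroblasts, 10 cells held 67.8%. Of 16 contractile genes with at least 50 UMIs, 7 were at least 2-fold higher in sub-cluster 3, beside 2.59% of all genes, but 1 member of 21238 UMIs held 482 of the 559 UMIs of Acta2, Actg2, Cnn1, Myh11 and Tagln in that sub-cluster. Without this member 0 of the 16 were past 2-fold there. Of the same 16 genes, 2 (Tagln and Synpo2) were at least 2-fold higher in sub-cluster 2, beside 2.08% of all genes, with or without that member. Without it, 2 (Tagln and Mylk) were higher in sub-cluster 4 and 1 (Lmod1) in sub-cluster 1, beside 2.32% and 3.43% of all genes. At least 2-fold lower in sub-clusters 1 to 4 were 3, 3, 0 and 2 of the 16 genes with all members. Without that member 1, 0, 0 and 1 were. Of all genes 3.53%, 4.6%, 7.28% and 3.54% were lower. Synpo2 stayed past 2-fold in sub-cluster 2 without all 19 cells that held at least 10 UMIs of the 5 genes. In sub-cluster 3, leaving out that member, Acta2, smooth muscle actin, went from 386 CPM (341 to 435) to 61.9 CPM (44.6 to 83.7), and Myh11, the smooth muscle myosin, from 174 to 19.2 CPM. In that member alone Acta2 stood at 10736 CPM. Without it, the count of matrix, ligand and contractile genes past 2-fold in sub-cluster 3 was 16 in place of 22.

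Over all fibroblasts, 272 of 411 had no UMI of these 5 genes and 19 had 10 or more. Sub-cluster 2 had 9 of those 19, and Tagln, an actin-binding protein of smooth muscle, stood at 6.75, 136, 157 and 128 CPM in sub-clusters 1 to 4, with 27.997 CPM left in sub-cluster 3 without 1 member. In sub-cluster 2, 10 cells held 81.0% of the UMIs of the 5 genes, and without the 19 cells Tagln was no longer at least 2-fold higher there but was so in sub-cluster 4. Des and Synpo2, both common in smooth muscle, were in contrast spread over many members. Des (desmin) was found in 299 of 411 cells, at 134, 228, 334 and 172 CPM in sub-clusters 1 to 4 and 1.896 CPM in the other cells of the library. Synpo2 stood at 195, 324, 164 and 53.8 CPM, and its log2 ratio in the best match of sub-cluster 2 was -0.55 at resolution 0.8. Of the 272 cells with no UMI of the 5 smooth muscle genes, 198 had a Des and 156 a Synpo2 UMI. Their levels over all fibroblasts without the 19 cells were 176 and 184 CPM.

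**Figure D5:**
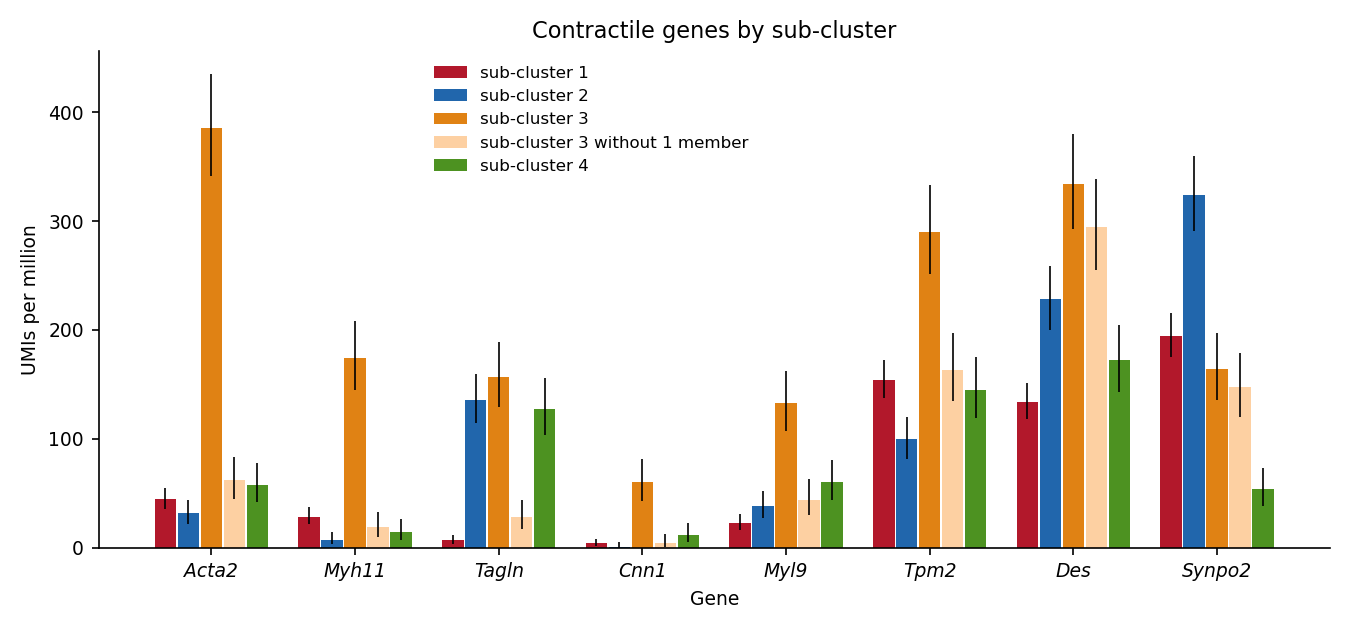
CPM of 8 contractile genes in sub-clusters 1 to 4, with sub-cluster 3 also shown without the 1 member that held most contractile UMIs; bars start at 0 and error bars are exact 95% Poisson intervals. The tall Acta2, Myh11 and Cnn1 bars of sub-cluster 3 shrink without that member, while Des and Synpo2 change little.

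Srd5a2, the enzyme that converts testosterone to dihydrotestosterone, was the one gene of 11 in the steroid list at least 4-fold higher in fibroblasts, beside 2.78% of all genes, at 105 CPM (96.4 to 115) against 4.41 CPM. It stood at 34.3, 250.5, 209 and 28.2 CPM, highest in sub-clusters 2 and 3. In sub-cluster 4 it was 15.1 CPM without 1 member. Its isoenzyme Srd5a1 was low, at 3.26 CPM in fibroblasts and 4.07 CPM in other cells.

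Of 11 Hedgehog and Wnt target genes, 3 were at least 4-fold higher in fibroblasts than in other cells, Hhip, Foxf1 and Nkd1, beside 2.78% of all genes. Hhip, a Hedgehog-binding target gene, stood at 112 CPM (103 to 122) against 0.942 CPM in other cells, the receptor Ptch1 at 71.2 against 10.5 and the factor Gli1 at 23.2 against 0.381 CPM. On CPM plus 10, Ptch1 and Gli1 stayed under the 4-fold limit, with log2 ratios of 1.98 and 1.68. The ligands Shh and Ihh stood at 6.74 and 8.59 CPM in gated epithelial cells, and had 1 and 9 UMIs in all fibroblasts. Over sub-clusters, Ptch1 stood at 75.8, 91.2, 111 and 36.3 CPM and Gli1 at 22.3, 38.2, 31.4 and 6.72 CPM, both lowest in sub-cluster 4. Gas1, a Hedgehog coreceptor, did not follow them, at 292, 38.2, 91.4 and 386 CPM. Of the FGF receptors, Fgfr1 was higher in fibroblasts, at 204 against 14.9 CPM, whereas Fgfr2 stood at 244 and 253 CPM in fibroblasts and other cells. Within fibroblasts, Fgfr2 was highest in sub-cluster 1, at 370.2, 192, 143 and 167 CPM. Fzd1, a Wnt receptor, stood at 36.3, 183, 144 and 77.9 CPM.

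Of 24 mesenchymal transcription factors with at least 50 UMIs, 1, 2, 0 and 3 were at least 2-fold higher and 1, 1, 4 and 2 lower in sub-clusters 1 to 4, beside 3.43%, 2.08%, 2.59% and 2.32% of all genes higher and 3.53%, 4.6%, 7.28% and 3.54% lower. Tcf21 stood at 855, 731, 592 and 564 CPM and Nr2f2 at 300.1, 338, 329 and 242 CPM. Rorb, an orphan nuclear receptor, stood at 531, 1376, 1099 and 108 CPM, and was lowest in sub-cluster 4. Meis2, a homeobox factor, stood at 67.5, 189.9, 48.6 and 422 CPM and was 4.34-fold (3.74 to 5.05) higher in sub-cluster 4. Klf4, which is also induced by stress, stood at 3149.8, 1913, 550.1 and 1668 CPM. Hoxd13 and Hoxa13, the most posterior genes of their clusters, stood at 112 and 50.7 CPM in fibroblasts against 28.03 and 9.45 CPM in other cells. Of the 12 posterior Hox genes compared, 0 were at least 4-fold higher in fibroblasts and 1, Hoxb13, was at least 4-fold lower, at 23.4 against 139 CPM. Without the 12 cells of sub-cluster 5 its level was 5.85 CPM. Of the 13 genes known from adventitial fibroblasts, the stroma around vessels, 6 were at least 4-fold higher than in other cells and 1 at least 4-fold lower, beside 2.78% and 1.33% of all genes. Among the higher, Clec3b stood at 466, 20.5, 100.02 and 285 CPM and Thy1 at 59.2, 223, 200.03 and 8.06 CPM, so that Clec3b was high in sub-clusters 1 and 4 and Thy1 in 2 and 3, while Cd34 varied less, at 278, 129, 233 and 232 CPM.

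Within sub-clusters 1 and 4, cells holding pairs of genes were counted. Sult1e1, an oestrogen sulfotransferase (ENSMUSG00000029272, chr5:87575969-87591594, minus strand), stood at 468 CPM (419.8 to 519) in sub-cluster 4, with 1 UMI in sub-cluster 1 and 0 in sub-clusters 2 and 3, which allows up to 2.79 and 4.29 CPM. Of the 76 cells, 33 had 2 UMIs of Sult1e1, and 25 of those also had 2 of Gpx3, the secreted glutathione peroxidase, which 38 of the 76 held. Of the same cells, 2 had 2 UMIs of Angpt1, which 13 cells of the sub-cluster held, and 1 had 2 of Bmp5, whereas 7 of the 10 cells with Bmp5 also had Angpt1. Multiplying the shares gives 16.5 cells for Sult1e1 with Gpx3, 5.64 with Angpt1 and 4.34 with Bmp5. For Bmp5 with Angpt1 it gives 1.71 cells. Myoc stood at 198 CPM in sub-cluster 4 and 119 CPM without 1 member. Lpl, lipoprotein lipase, stood at 95.4 CPM there against 1.68 CPM in the other fibroblasts. In sub-cluster 1, Kcnc2, a potassium channel gene that also stood at 304 CPM in gated endothelial cells, reached 2 UMIs in 61 of 144 cells. At resolution 0.8 its log2 ratio was -0.65 in the best match of that sub-cluster. Of those 61 cells, 50 also had 2 UMIs of Pi15, another leading gene, which 98 cells held. Postn reached 2 UMIs in 28 cells, of which 12 had Kcnc2 as well. Multiplying the shares gives 41.5 cells for Kcnc2 with Pi15 and 11.9 for Kcnc2 with Postn. When clustering was made finer, at resolution 0.8, sub-clusters 1, 2 and 4 split, and their largest pieces held 54.2%, 56.9% and 71.1% of their cells.

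Among the leading genes of sub-cluster 3, Apela, a ligand of the apelin receptor, stood at 95.7 CPM there and 49.3 CPM in sub-cluster 2, with 0 UMIs in sub-cluster 4, which allows up to 4.03 CPM. Sub-cluster 3 also held Kcnd2 at 1309 CPM (1225 to 1396) against 389 CPM in the other fibroblasts. In sub-cluster 2, the transcription factor Tfap2c stood at 17.7, 182, 94.3 and 6.72 CPM over sub-clusters 1 to 4, and Nptx2, a secreted pentraxin, at 10.4, 119, 48.6 and 6.72 CPM. Both were next highest in sub-cluster 3.

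Sub-cluster 5, with 12 cells, carried the RNA of luminal epithelium beside collagen. It was led by Msmb, Sbp, Defb50, Spink1, Pate14 and Tspan1, most of them genes of secretory epithelium. In 11 of its 12 cells Krt8 or Epcam had at least 2 UMIs, which was the case in 28 of 144, 15 of 102, 14 of 77 and 15 of 76 cells of the others. Its median depth was 32724 UMIs. The secretory genes Sbp, Spink1, Defb50 and Msmb took 14.4% of its UMIs, but the median cell had 0.148%, since 5 cells had more than 1% and 3 more than 5%. Dcn stood at 1262 CPM and the collagens of the rule summed to 659 CPM, against 3283, 1841, 2212 and 3690.4 CPM in sub-clusters 1 to 4. Of all 8696 genes, 4.39% were at least 2-fold higher and 16.8% at least 2-fold lower in it than in the other fibroblasts. Leaving these 12 cells out gave 17, 25, 16 and 34 matrix, ligand and contractile genes past 2-fold in sub-clusters 1 to 4, in place of 22, 29, 22 and 42.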

How the data were processed

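Single cells of 2 mouse prostate libraries were sequenced from the 3' end. The deposited matrices hold raw UMI counts per gene and cell barcode, made by the authors with Cell Ranger 7.0.0 on mm10, per the submitters' processing notes. The proximal library held 4344 barcodes with 97817603 UMIs and the ventral library 2221 with 49356586. Counts were not normalised further than to CPM of summed counts. Ratios used CPM plus 10 for limits of fold and CPM alone for the ratios printed with intervals. Intervals are exact 95% Poisson (levels, and by the binomial for ratios) or Clopper-Pearson (shares) intervals, and cover counting error only.

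Fibroblasts were sub-clustered with scanpy 1.11.5 (Python 3.11.15, igraph 0.11.9) on 1500 variable genes, 20 principal components, 15 neighbours and Leiden resolution 0.5, without the matrix, contractile, ligand and rule genes. No doublet caller was run, and no source used here says that doublets were removed. Leaving out the members with the 5% highest UMI totals, and those with 2 UMIs of another cell type's gene, were alternatives. Steps were tested on simulated data.

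Named genes were the 25 with the highest ratio to other cells among those in at least 10% of fibroblasts, up to 4 by level and 4 by range over sub-clusters from each list, the 6 leading each sub-cluster among those in at least 25% of its cells, and label markers. Further genes, such as Rspo3, Fgf7, Fgf10, Shh, Ihh and those named only as past a limit, were chosen after their values were seen. A few genes the rule names are not reported here. Members and lists were chosen with earlier results of these data known. Leaving out sub-cluster 5, contractile members, the member with most Cxcl13 or members by markers without Pecam1 was chosen after seeing the data. Gene positions are from GENCODE on GRCm38, the build called mm10.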

Additional observations from a re-analysis of the deposited data

How the results depend on the processing

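All values rest on 1 library, so animal-to-animal spread was not measured, and genes with few UMIs per sub-cluster have wide counting intervals. No paired analysis was possible because each region has 1 library. The count of 411 fibroblasts (11.1%) was 320 (12.4%) with at most 5% mitochondrial UMIs, 319 (8.60%) with all 3 collagens required, 474 (12.8%) with collagens at 1 UMI and 312 (8.41%) with a Pdgfra UMI required. The 457 genes at least 4-fold higher than in other cells were 1276 with a pseudocount of 1 CPM and 115 with 50 CPM. For the 25 genes with the largest ratios to other cells, 400 values under alternatives gave 257 that moved by more than their counting interval, 143 that did not and 0 that turned direction, which is little of a check for genes chosen for large ratios. A pseudocount of 50 CPM gave 12, 17, 10 and 23 matrix, contractile and ligand genes at least 2-fold higher in sub-clusters 1 to 4, and the mean over cells gave 13 in sub-cluster 3. Shares of cells with a UMI followed the depth: without thinning and at 1000 UMIs they were 75.9% and 16.5% for Pdgfra, 54.0% and 23.6% for Lgr5, 51.8% and 18.0% for Wnt2, and 16.1% and 4.87% for C3. The number of sub-clusters was 3 at resolution 0.3, 8 at 0.8, 6 with listed genes kept, 6 without stress genes, 6 with 800 and 7 with 3000 variable genes. It was 4 without members holding 2 UMIs of another cell type's gene, also where Pecam1 was not used for that.

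Of 1770 sub-cluster ratios under alternatives, for 118 genes, 663 moved by more than their counting interval, 1055 did not and 52 turned direction against a 2-fold difference. The log2 ratios of the last follow in parentheses. The cause was not tested, but an alternative clustering was matched by its best-overlapping cluster, which could hold a piece of a sub-cluster or cells of others. At resolution 0.3, where sub-clusters 3 and 4 shared a cluster of 150 cells, these were Acta2 (-0.66), Myh11 (-1.14) and Cnn1 (-0.36) in sub-cluster 3. At resolution 0.8 they were Kcnc2 (-0.65), Ltbp1 (-0.13), Has2 (-0.0404) and Vcan (-0.41) in sub-cluster 1, Synpo2 (-0.55) in sub-cluster 2, Acta2 (-0.48), Myh11 (-0.85), Tagln (-1.3000), Cnn1 (-0.25) and Myl9 (-0.0316) in sub-cluster 3 and Angpt1 (-0.91) and Bmp5 (-0.11) in sub-cluster 4. With listed genes kept in the clustering they were Igfbp2 (-0.0716), Cxcl14 (-0.62), Dkk2 (-1.13) and Penk (-0.38) in sub-cluster 2 and Acta2 (-0.31), Myh11 (-1.05), Tagln (-0.16) and Cnn1 (-0.34) in sub-cluster 3. Without stress genes they were Angpt1 (-0.87) and Bmp5 (-0.0409) in sub-cluster 4. With 800 variable genes they were Acta2 (-0.68), Myh11 (-0.96), Tagln (-1.52), Cnn1 (-0.31) and Myl9 (-0.0884) in sub-cluster 3 and Angpt1 (-0.92) and Bmp5 (-0.6014) in sub-cluster 4, and with 3000 they were Kcnc2 (-0.54), Postn (-0.0539), Ltbp1 (-0.0723), Has2 (-0.0981) and Vcan (-0.57) in sub-cluster 1, Acta2 (-0.5002), Myh11 (-0.9984), Tagln (-0.0348) and Cnn1 (-0.34) in sub-cluster 3 and Angpt1 (-0.97) and Bmp5 (-0.56) in sub-cluster 4. Without members holding another cell type's gene they were Synpo2 (-0.00535) in sub-cluster 2, Acta2 (-1.08), Tagln (-1.51) and Cnn1 (-0.31) in sub-cluster 3 and Slit3 (-0.35) in sub-cluster 4, and with Pecam1 not used for that Acta2 (-0.42) and Tagln (-1.62) in sub-cluster 3. Without the member with most contractile UMIs the ratio of Tagln (-0.89) in sub-cluster 3 turned, and without members with at least 10 such UMIs that of Acta2 (-0.34) in sub-cluster 3.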
